A study of Homo sapiens with 12 samples.

Results

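Degron (++) cells were compared with degron (−) cells at 48 h without irradiation (0 Gy). The comparison used the 4 of the study's 12 libraries whose labels give this dose and hour, 2 libraries in each population. The other 8 libraries were irradiated with 4 Gy and sampled at 30 h or 48 h. All of the cells derive from PANC-1, an established line from a human pancreatic carcinoma, which was infected with a retrovirus that carries the fluorescent protein ZsGreen fused to the degron of ornithine decarboxylase (ODC) and was selected with G418. The unsorted infected pool, in which ZsGreen-positive cells are rare, is the degron (−) population, and degron (++) cells are the brighter part of a population enriched for ZsGreen by repeated sorting. Both therefore come from the infected pool and carry the reporter. How many clones make up each was not tested. The starting point of the 48 h is not given in the labels. The degron (−) libraries are named ZsGreen– in their titles and d+ in their descriptions. Nothing in the labels says that replicates came from separate cultures, so the p-values measure only the spread between these libraries, which may be technical.

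The ODC degron is a stretch of protein that sends whatever carries it to the 26S proteasome without a ubiquitin tag. A cell that degrades the fusion protein slowly stays green, and such cells have been used as a model of cancer stem cells, that is, of cells thought to renew the tumor and resist therapy. Carcinoma cells in culture also differ in how far they keep an epithelial program, with E-cadherin junctions and apical-basal polarity, or a mesenchymal program, with vimentin filaments and stromal matrix proteins.

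Expression was given as FPKM, fragments counted relative to gene length and to the mapped reads of the library, in which levels of different genes can be compared on a per-length scale. A gene was tested when its FPKM was at least 1 in at least 2 of the 4 libraries, which 12518 of the 23284 listed genes were. Differences are given as log2(FPKM + 1) in degron (++) minus degron (−), with the standard error (SE) and the Benjamini-Hochberg adjusted p of limma from a fit of all 12 libraries. This scale understates the change of genes with low FPKM. The number of reads behind a value is unknown. The size of the smallest steps in FPKM put their depths, relative to each other, at 0.99 to 1.02. All FPKM of a library added up to 829654 and 883273 in degron (++) and 763064 and 718118 in degron (−), and the small RNA gene MIR622 took 24.3% to 29.5% of it. Replicates correlated with r of 0.9817 in degron (++) and 0.976 in degron (−) on the log2 scale over the tested genes, and libraries of different populations with r of 0.8257 to 0.8332.

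The populations differed in 9880 genes, 78.9% of those tested, with 4803 higher (38.4%) and 5077 lower (40.6%) in degron (++) cells. Because so many genes passed this threshold, the gene groups below were counted by a stricter rule, an adjusted p under 0.05 and a difference of at least 2-fold on the log2(FPKM + 1) scale. This rule held for 1391 higher genes (11.1%) and 1720 lower genes (13.7%). These shares of all tested genes are the background to each count of list members below. A member that passed the filter through 1 population alone could only be higher in that population, which weighs on these counts. The median log2 fold change over all genes was -0.02. Rescaling the FPKM to equal sums (TPM) moved that median by -0.192, and 35.9% of the genes past the threshold were then higher, against 48.6% without rescaling. An exact permutation test of 2 libraries against 2 cannot give a p below 0.333, so none was used. In these bulk libraries, fewer cells that express a gene and less RNA of it in each cell cannot be told apart. Of the 217 genes chosen by rule for naming, 105 were higher and 112 lower in both degron (++) libraries than in either degron (−) library, which follows from a rule that selects on the difference. The libraries of the 2 populations did not overlap for 88.7% of all tested genes. Of the 217, 212 were at least 2-fold apart, and 201 of them were at least 2-fold apart in the same direction at 4 Gy at both hours. At least 2-fold differences were also found at 4 Gy, at both hours and in the same direction, for 1068 of the 1391 higher genes (76.8%) and 1489 of the 1720 lower genes (86.6%).

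The labelled cell type was checked against marker genes before the results. Markers of the carcinoma cell were present in both populations. EPCAM, an epithelial surface antigen, had 179 and 176 FPKM in degron (++) and 37.4 and 37.6 FPKM in degron (−). SOX9, a transcription factor of pancreatic ducts, had 18.2 and 17.4 FPKM in degron (++) and 35.6 and 35.9 FPKM in degron (−), and MUC1 had 40.7 and 42.3 FPKM against 13.3 and 13.8 FPKM. The 7 acinar, 5 islet and 4 endothelial markers were all under 1 FPKM in every library, and 4 of the 7 acinar and 4 of the 5 islet markers were listed at 0 throughout. Of 6 leukocyte markers PTPRC and CD3E were at most 0.0550 FPKM. CD68, a lysosomal protein that is not confined to leukocytes, had 3.02 and 2.94 FPKM in degron (++) and 124 and 140.1 FPKM in degron (−). CD14, a monocyte receptor, had 1.92 and 1.84 FPKM against 0.187 and 0.583 FPKM. Of 7 fibroblast markers, PDGFRA was at most 0.0130 FPKM and DCN was listed at 0 in all 4 libraries, while the sum of the list was 25.4 and 23.3 FPKM in degron (++) and 57.0 and 48.2 FPKM in degron (−).

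Some genes went against what is known of the line. PANC-1 is known for a homozygous deletion of the CDKN2A locus, which also holds CDKN2B and often takes the neighbouring MTAP with it. CDKN2A, which encodes the cell cycle inhibitors p16 and ARF, had 108 and 103 FPKM in degron (++) and 18.8 and 15.2 FPKM in degron (−). CDKN2B had 13.2 and 12.5 FPKM in degron (++) and 1.69 and 1.40 FPKM in degron (−), and MTAP, a methionine salvage enzyme, had 16.9 and 17.8 FPKM against 4.07 and 3.77 FPKM. All of these genes were therefore listed well above 0 in every library and were 4.44-fold (MTAP) to 8.30-fold (CDKN2B) higher in degron (++). Whether the populations share 1 genotype was not tested.

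The most extreme differences were uneven between the directions. Among genes with at least 20 FPKM in the higher population, leaving out small RNA and Y-linked genes, the degron (++) level was under 1% of the degron (−) level for 53 of 4424 genes, and the degron (−) level was under 1% of the degron (++) level for 0 of 4295 genes. At a limit of 5% the numbers were 92 and 3, at 10% they were 121 and 20, and at 20% they were 195 and 127. The lowest degron (−) level of a gene that was 2-fold higher in degron (++) was 2.96% of the degron (++) level at this minimum. The medians of the 2-fold genes were close, at 33.3% over 556 higher genes and 30.3% over 570 lower genes, so that the unevenness lay in the extremes. In addition, 65 genes were listed at 0 in both degron (++) libraries with at least 5 FPKM in degron (−), and 0 genes were listed at 0 in both degron (−) libraries with at least 5 FPKM in degron (++). An FPKM of 0 is read here only as listed at 0, since it can also be a failed estimate.

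**Figure D1:**
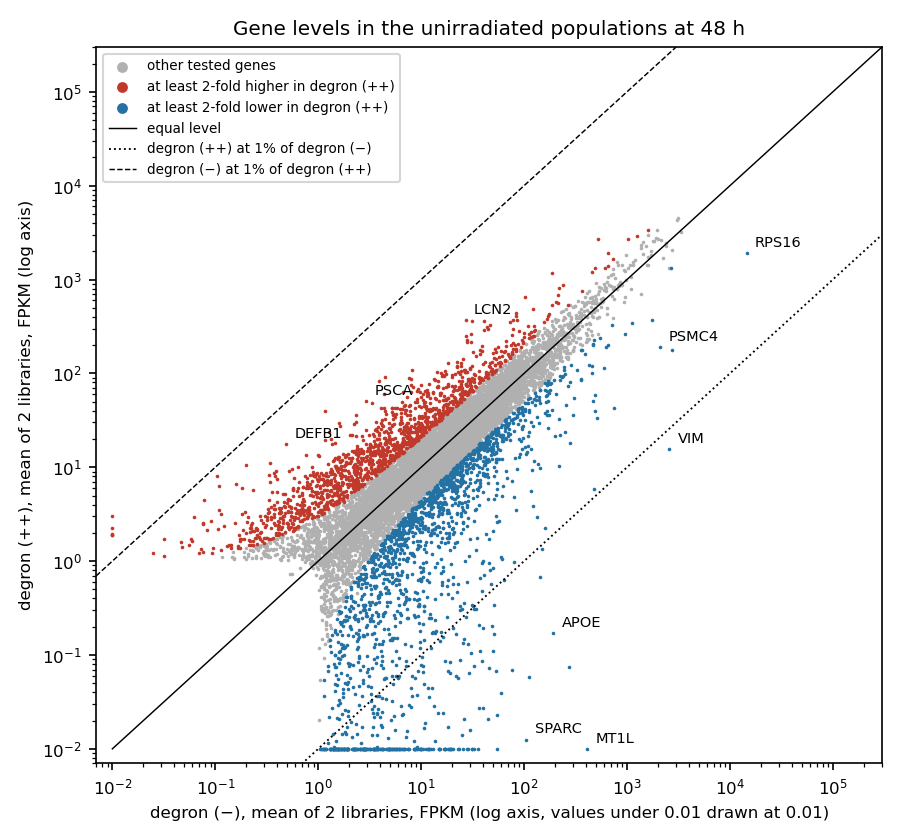
Mean FPKM of the tested genes in degron (−) (x axis) and degron (++) cells (y axis), both on log axes, with 2 libraries per population and small RNA and Y-linked genes left out. Points at least 2-fold higher in degron (++) are red and those at least 2-fold lower are blue; of the genes with at least 20 FPKM in the higher population, 53 lie below the dotted line, where degron (++) is at 1% of degron (−), and 0 lie above the dashed line, where degron (−) is at 1% of degron (++).

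The 10 largest rises, among genes with at least 5 FPKM in the higher population and without keratins, histone genes and the genes of the study's own table, were in genes for secreted or surface proteins for the most part. PSCA, a surface antigen of pancreatic and prostate carcinoma, had 56.1 and 45.2 FPKM in degron (++) and 3.69 and 2.12 FPKM in degron (−), a log2 fold change of 3.75 (SE 0.17, adjusted p = 3.59e-08, limma). LCN2, a secreted protein that binds bacterial siderophores, had 374 and 369 FPKM against 27.2 and 26.8 FPKM, a log2 fold change of 3.73. DEFB1, an epithelial antimicrobial peptide, had 17.21 and 18.05 FPKM against 0.646 and 0.335 FPKM. The insulin-like growth factor binding proteins IGFBP3 (114 and 106 FPKM against 9.75 and 6.64 FPKM) and IGFBP7 (47.5 and 49.2 FPKM against 4.83 and 1.85 FPKM) rose by 3.61 and 3.60 on the log2 scale. The other 5 were OLR1, a receptor for oxidized lipoprotein, DAPK1, a kinase that promotes cell death, SPOCK2, a matrix proteoglycan, NMU, a neuropeptide, and NNMT, which methylates nicotinamide, with log2 fold changes of 3.45 to 3.57.

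The largest falls reached further. MT1L, a metallothionein gene, was listed at 0 in both degron (++) libraries and at 395 and 422 FPKM in degron (−). It shares reads with its close relatives, so its value is uncertain. PPP1R14A, an inhibitor of myosin phosphatase, had 0.148 and 0 FPKM in degron (++) and 282 and 261 FPKM in degron (−), a log2 fold change of -7.99 (SE 0.10, adjusted p = 9.9e-12, limma). APOE, the apolipoprotein of remnant particles, had 0.260 and 0.0850 FPKM against 199.8 and 183 FPKM. VIM, the intermediate filament protein vimentin, had 14.7 and 16.6 FPKM against 2542 and 2605 FPKM. Next came CD70, a ligand of the tumor necrosis factor (TNF) family, SPARC, a matrix glycoprotein, FBXO17, a substrate receptor of a ubiquitin ligase, IGFBP2, MFGE8, a secreted bridge to integrins, and PLEKHG2, a guanine nucleotide exchange factor, with log2 fold changes of -6.74 to -6.00. In all of these genes the degron (++) libraries lay below every degron (−) library by far more than the spread between replicates. This follows from the rule, which took the largest differences among genes whose libraries did not overlap.

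Epithelial genes were higher in degron (++) cells as a group. Of 47 tested genes of junctions, polarity and epithelial identity, 34 were at least 2-fold higher and 1 was at least 2-fold lower, against 11.1% higher and 13.7% lower over all genes, and the median log2 fold change was 1.55 against -0.02. All parts of the list contributed, with 12 of 16 tight and adherens junction genes, 6 of 7 desmosome genes, 8 of 14 polarity genes and 8 of 10 regulators at least 2-fold higher. CDH1, which encodes E-cadherin, had 65.2 and 62.8 FPKM in degron (++) and 8.36 and 7.69 FPKM in degron (−), a log2 fold change of 2.85 (SE 0.05, adjusted p = 1.05e-10, limma). ELF3, an epithelial transcription factor, had 93.1 and 86.3 FPKM against 8.14 and 7.01 FPKM. MAL2, which carries proteins to the apical surface, had 237 and 222 FPKM against 29.4 and 26.3 FPKM. ELF3 rose by 3.41 on the log2 scale, and MAL2 was 8.24-fold higher. The exception was PERP, a desmosome protein, with 39.5 and 36.1 FPKM against 158 and 161 FPKM. In the 34 higher genes, degron (−) cells held between 8.44% (ELF3) and 49.4% (JUP) of the degron (++) level, so the epithelial genes were measured in both populations.

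Mesenchymal genes were split. Of 28 tested members, 15 were at least 2-fold lower (53.6%, against 13.7% of all genes) and 8 at least 2-fold higher (28.6%, against 11.1%). The median log2 fold change was -1.31. SPARC had 0.0250 and 0 FPKM in degron (++) and 111 and 99.5 FPKM in degron (−). MYL9, a myosin light chain, had 0.306 and 0.0990 FPKM against 50.2 and 46.7 FPKM. COL1A1, a chain of type I collagen, had 0.605 and 0.531 FPKM against 52.3 and 44.1 FPKM. In the 15 lower genes, VIM, SPARC, MYL9 and COL1A1 among them, degron (++) cells held between 0% (THY1) and 37.7% (LOXL1) of the degron (−) level, with a median of 0.607%. Members such as SPARC, MYL9, COL1A1 and THY1 passed the filter through the degron (−) libraries alone. They could therefore only be lower in degron (++), and they weigh on the count and the medians. The higher members were matrix and adhesion genes as well. LUM, a collagen-binding proteoglycan, had 24.7 and 22.6 FPKM in degron (++) and 1.38 and 1.16 FPKM in degron (−). COL12A1 had 37.9 and 36.3 FPKM against 5.52 and 5.11 FPKM. CDH2, which encodes N-cadherin and is usually counted as mesenchymal, had 42.1 and 41.2 FPKM against 6.83 and 5.71 FPKM, a log2 fold change of 2.56 (SE 0.08, adjusted p = 3.23e-09, limma), so that both classical cadherins, CDH1 and CDH2, were higher in degron (++) cells. Of the transcription factors that drive the mesenchymal state, 4 of 8 passed the filter, and 3 of these were at least 2-fold lower and 1 at least 2-fold higher. ZEB1, a repressor of epithelial genes, had 0.0300 and 0.0590 FPKM in degron (++) and 8.17 and 7.84 FPKM in degron (−). SNAI2, another such repressor, had 34.4 and 35.4 FPKM against 9.70 and 9.34 FPKM. ZEB1 and SNAI2 were picked out after their values were seen, and ZEB1 passed the filter through the degron (−) libraries alone.

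**Figure D2:**
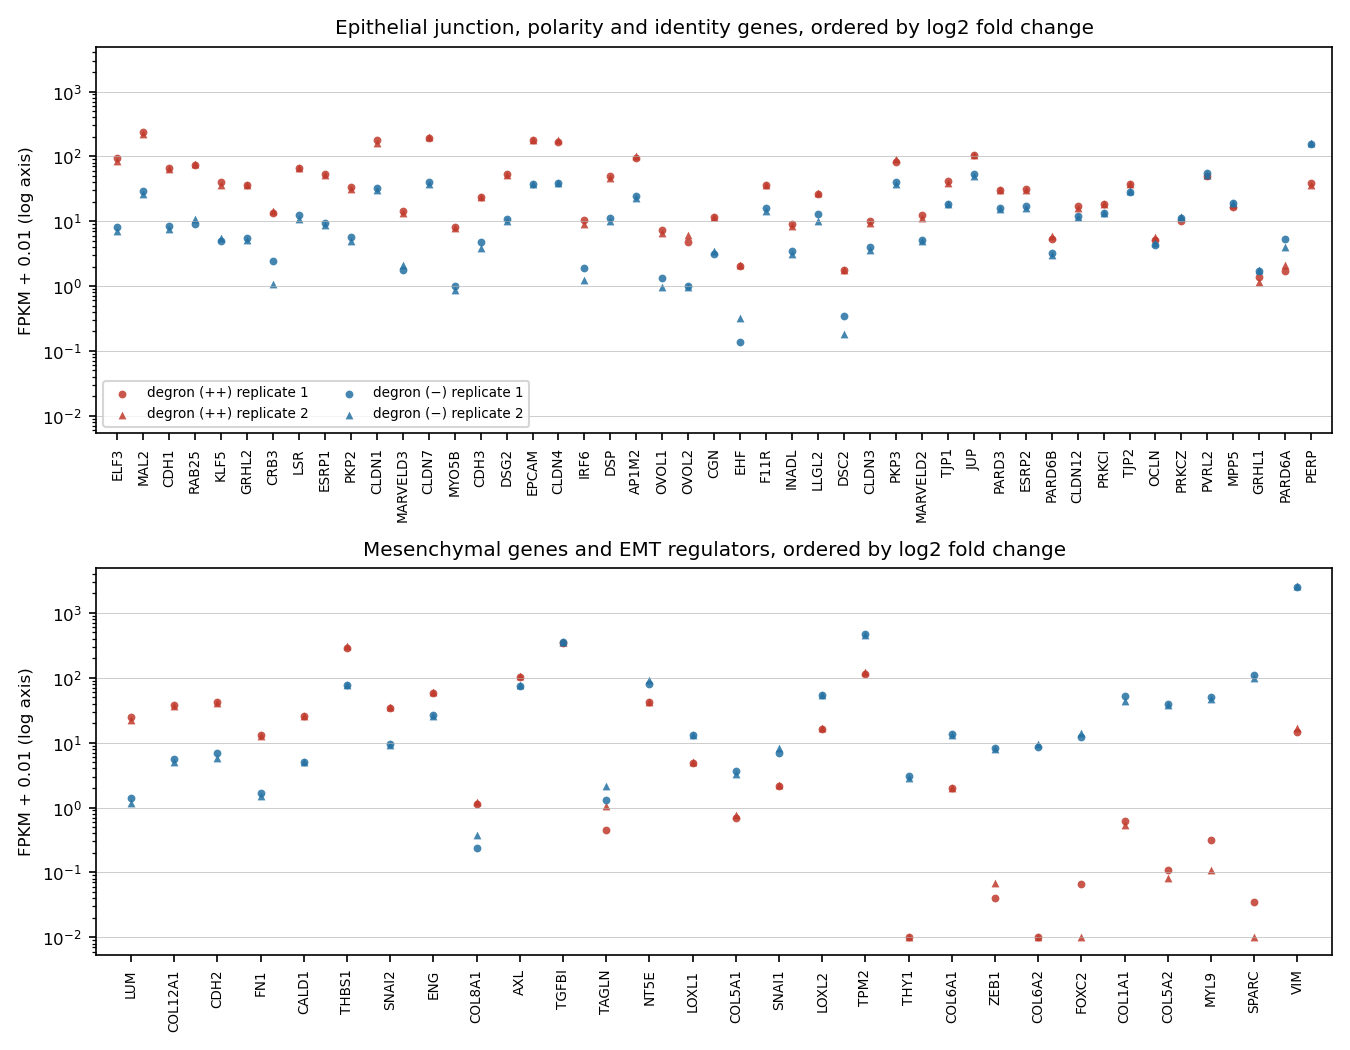
FPKM (with 0.01 added, log axis) of the 47 epithelial genes (top) and the 28 mesenchymal genes (bottom) in each of the 4 libraries, with degron (++) in red and degron (−) in blue, circles for replicate 1 and triangles for replicate 2. Epithelial genes run within about the same range in both populations, with red above blue for most genes, while VIM, SPARC, MYL9 and COL1A1 at the right of the lower panel are far lower in degron (++) cells.

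Promoter sequences of epithelial genes are shown because ZEB1 and the SNAIL proteins, as background, repress such genes through the E-box CAGGTG. The windows are the 250 bases before the start of the gene, from RefSeq on GRCh38.p14, read 5′ to 3′ on the gene's strand, and capitals mark each CAGGTG found on either strand (CACCTG on the strand printed). Promoters were found for 9746 of the 12518 tested genes. CRB3, a polarity protein, and ELF3 were higher in degron (++) cells, and VIM was lower; CRB3 was picked after its values were seen, and had 13.3 and 14.5 FPKM against 2.44 and 1.06 FPKM.
CRB3 (chr19:6464021-6464270, plus strand): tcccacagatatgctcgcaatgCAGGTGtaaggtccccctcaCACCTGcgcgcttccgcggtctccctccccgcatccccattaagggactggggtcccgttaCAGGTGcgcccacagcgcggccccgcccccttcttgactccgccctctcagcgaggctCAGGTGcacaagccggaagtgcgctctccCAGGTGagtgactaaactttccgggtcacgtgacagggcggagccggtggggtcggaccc
ELF3 (chr1:202010337-202010586, plus strand): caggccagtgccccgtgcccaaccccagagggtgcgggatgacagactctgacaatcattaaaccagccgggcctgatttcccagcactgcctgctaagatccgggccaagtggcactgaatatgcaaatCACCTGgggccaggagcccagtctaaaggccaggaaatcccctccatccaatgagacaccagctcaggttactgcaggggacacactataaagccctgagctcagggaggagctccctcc
VIM (chr10:17227991-17228240, plus strand): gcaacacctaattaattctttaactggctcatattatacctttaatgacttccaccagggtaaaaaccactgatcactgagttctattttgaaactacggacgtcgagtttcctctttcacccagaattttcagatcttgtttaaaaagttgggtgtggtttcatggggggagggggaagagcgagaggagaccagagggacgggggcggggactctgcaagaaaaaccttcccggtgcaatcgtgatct
CAGGTG occurred in 5 places before CRB3, in 1 before ELF3 and in 0 before VIM. It was in 17.5% of all 35116 promoter windows of the table. Of 41 windows of the tested epithelial genes, 16 (39.0%) held it, with 12 of 28 (42.9%) for members at least 2-fold higher and 4 of 12 (33.3%) for members that did not reach 2-fold. Of 29 windows of mesenchymal genes, 3 (10.3%) held it. Windows of 1 gene with several starts can overlap, and a match of these letters is a description of the window.

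Basement membrane genes differed by part. Of 33 tested genes of the basement membrane, hemidesmosomes and integrins, 12 were at least 2-fold higher and 10 at least 2-fold lower. Laminin chains made up 5 of the higher genes and 1 of the lower ones. LAMA3, a chain of laminin-332, had 129 and 127 FPKM in degron (++) and 24.95 and 23.7 FPKM in degron (−). ITGB4, which binds that laminin in hemidesmosomes, had 61.0 FPKM in both degron (++) libraries and 11.4 and 9.28 FPKM in degron (−), and ITGB6, an epithelial integrin that activates latent TGF-beta, had 22.8 and 21.4 FPKM against 2.03 and 2.26 FPKM. The fibronectin receptor chain ITGA5 went the other way, with 0.981 and 1.04 FPKM against 25.8 and 28.1 FPKM, as did COL18A1, with 25.8 and 27.1 FPKM against 171 and 169 FPKM. LAMC3 was listed at 0 in both degron (++) libraries and at 6.61 and 6.87 FPKM in degron (−). Among 28 matrix proteases and inhibitors, 14 were at least 2-fold higher and 6 at least 2-fold lower. SPINT1, an inhibitor of membrane serine proteases, had 67.4 and 69.8 FPKM against 9.63 and 8.81 FPKM, and its target PRSS8 had 22.2 and 20.7 FPKM against 3.28 and 2.07 FPKM. KLK6, a secreted serine protease, rose by 2.72 on the log2 scale. The gelatinase MMP2 had 0.0270 and 0.0520 FPKM in degron (++) and 60.6 and 58.7 FPKM in degron (−).

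Of 14 tested mucins and surface antigens of carcinoma, 8 were at least 2-fold higher and 4 at least 2-fold lower, against 11.1% and 13.7% of all genes. The 3 mucins were all higher, while of the 11 antigens 5 were at least 2-fold higher and 4 at least 2-fold lower. FOLR1, the folate receptor, had 88.0 and 87.9 FPKM in degron (++) and 9.38 and 6.60 FPKM in degron (−). Against these, ANPEP, a membrane aminopeptidase, had 5.88 and 5.32 FPKM in degron (++) and 113 and 123 FPKM in degron (−), and L1CAM and CD44 were 3.66-fold and 2.98-fold lower. Uroplakins, which plate the urothelium, did not move together: UPK2 had 10.8 and 9.28 FPKM against 0.680 and 1.06 FPKM, while UPK1B had 0.0460 and 0.0890 FPKM against 53.2 and 53.6 FPKM.

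Secreted defence genes were higher more often than lower. Of 15 tested, 11 were at least 2-fold higher and 2 at least 2-fold lower, with a median log2 fold change of 1.80. In the part of the list that holds antimicrobial peptides, protease inhibitors, LCN2 and RARRES genes, all 6 tested members were at least 2-fold higher. RARRES3, a retinoid-induced phospholipase, had 249 and 251 FPKM in degron (++) and 29.3 and 25.5 FPKM in degron (−), a log2 fold change of 3.15, below those of LCN2 (3.73) and DEFB1 (3.65). The complement genes CD59 (52.5 and 52.0 FPKM against 131 and 147 FPKM) and CFD (2.48 and 2.42 FPKM against 8.22 and 7.45 FPKM) were lower. Cytokines, chemokines and NF-kB targets had 10 of 39 members at least 2-fold higher (25.6%, against 11.1% of all genes) and 7 at least 2-fold lower (17.9%, against 13.7%). PTGES, the inducible synthase of prostaglandin E2, had 331 and 322 FPKM in degron (++) and 50.2 and 42.3 FPKM in degron (−). CXCL16 and IL6 were 4.75-fold and 4.02-fold higher. The monocyte chemokine CCL2 had 5.63 and 2.13 FPKM in degron (++) and 119 and 124 FPKM in degron (−), CX3CL1 had 0.0280 and 0 FPKM against 23.9 and 25.6 FPKM, and the NF-kB target BIRC3 had 8.91 and 8.33 FPKM against 37.8 and 42.2 FPKM. The cytokine genes IL6 and CCL2, both textbook NF-kB targets, thus differed in opposite directions.

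Interferon-stimulated genes were higher more often than lower. Of 40 tested, 16 were at least 2-fold higher and 4 at least 2-fold lower, with a median log2 fold change of 0.86. BST2, which tethers viruses to the cell surface, had 119 FPKM in both degron (++) libraries and 26.3 and 22.7 FPKM in degron (−). LGALS3BP, a secreted glycoprotein, had 345 and 354 FPKM against 77.1 and 67.5 FPKM. OAS1, a sensor of double-stranded RNA, had 24.9 and 23.7 FPKM against 5.18 and 3.85 FPKM. MX2, which blocks nuclear import of viruses, had 0.368 and 0.298 FPKM in degron (++) and 8.996 and 9.833 FPKM in degron (−), and IRF7 and IFITM2 were 4.71-fold and 2.86-fold lower. ISG15, the ubiquitin-like protein of the pathway, was not named by the rule and had a log2 fold change of 0.82. The promoters of a higher gene, BST2, and of a lower one, IFIT1 (10.7 and 9.50 FPKM against 26.3 and 23.7 FPKM), are shown because both hold a pair of GAAA cores 2 bases apart, the pattern of the element bound by interferon-activated factors, in capitals on either strand (TTTC on the strand printed where it lies on the other).
BST2 (chr19:17405631-17405880, minus strand): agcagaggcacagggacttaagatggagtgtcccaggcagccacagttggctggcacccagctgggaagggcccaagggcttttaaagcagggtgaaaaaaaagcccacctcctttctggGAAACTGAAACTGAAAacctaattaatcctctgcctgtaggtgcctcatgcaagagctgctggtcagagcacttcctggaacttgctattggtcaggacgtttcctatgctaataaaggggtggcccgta
IFIT1 (chr10:89392373-89392622, plus strand): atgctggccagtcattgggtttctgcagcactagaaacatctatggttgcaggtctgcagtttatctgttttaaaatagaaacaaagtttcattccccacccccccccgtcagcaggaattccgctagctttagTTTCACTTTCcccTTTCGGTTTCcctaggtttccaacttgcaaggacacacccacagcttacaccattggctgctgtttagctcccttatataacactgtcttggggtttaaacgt
Both windows held 2 matches, which overlap before BST2. The motif was in 3.02% of all windows and in 20 of 41 windows (48.8%) of the tested interferon-stimulated genes. It was in 9 of 20 windows (45.0%) of members at least 2-fold higher and in 10 of 20 windows of those that did not reach 2-fold.

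Of 24 tested antigen presentation genes, 7 were at least 2-fold higher (29.2%, against 11.1% of all genes) and 2 at least 2-fold lower (8.33%, against 13.7%), and none of 10 class II genes passed the filter. ERAP2, an aminopeptidase that trims peptides for class I molecules, had 49.5 and 48.3 FPKM in degron (++) and 12.1 FPKM in both degron (−) libraries. NLRC5, the transactivator of class I genes, was 4.02-fold higher and CD274, which encodes PD-L1, was 3.88-fold higher. The NKG2D ligands MICB (14.1 and 13.5 FPKM against 51.8 and 50.5 FPKM) and ULBP1 (0.259 and 0.112 FPKM against 1.37 and 1.54 FPKM) were lower. In the TNF superfamily 8 of 24 members were at least 2-fold higher and 4 at least 2-fold lower. LTBR, the lymphotoxin beta receptor, had 82.6 and 83.6 FPKM against 15.8 and 13.6 FPKM, and TNFRSF21 was 3.89-fold higher. The ligand CD70 had 0 and 0.117 FPKM in degron (++) and 113 and 111 FPKM in degron (−), and the receptor CD40 had 0.313 and 0.122 FPKM against 10.3 and 8.73 FPKM.

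Of the genes close to the reporter, ODC1, OAZ1 and PSMB5 changed little, while the antizyme gene OAZ2 was lower in degron (++) cells. ODC1, the source of the degron, had 197 and 198 FPKM in degron (++) and 208 and 215 FPKM in degron (−), a log2 fold change of -0.10 (SE 0.03, adjusted p = 0.0272, limma). OAZ1, the antizyme that hands ODC to the proteasome, had 390.4 and 424 FPKM against 460.4 and 454 FPKM, a log2 fold change of -0.17 (adjusted p = 0.02, limma). Neither call held in every alternative fit. OAZ2, another antizyme, had 21.4 and 23.2 FPKM in degron (++) and 60.3 and 62.5 FPKM in degron (−), a log2 fold change of -1.42 (SE 0.07, adjusted p = 4.76e-08, limma). PSMB5, the chymotrypsin-like core subunit, had 258 and 266 FPKM against 244 and 234 FPKM, a difference that did not pass the threshold (adjusted p = 0.0602, limma) and turned negative after rescaling to TPM. Of 52 genes of the constitutive proteasome and ubiquitin, 2 were at least 2-fold higher and 2 at least 2-fold lower. Within the 20S core, log2 fold changes of 14 genes lay between -0.88 and 0.81. PSME3, the nuclear activator of the core, and PSMG2, an assembly chaperone, were 2.14-fold and 2.05-fold higher, and neither reached 2-fold after rescaling to TPM.

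PSMC4, an ATPase of the proteasome cap, stood apart from the other subunits. It had 189 and 194 FPKM in degron (++) and 2063 and 2165 FPKM in degron (−), an 11.02-fold difference (log2 fold change -3.46, SE 0.04, adjusted p = 1.02e-11, limma). The other 20 tested cap genes lay between -0.70 (PSMD8) and 0.58 (PSMD5) on the log2 scale. PSMC4 lies on chromosome 19, and its neighbours differed in the same direction. Of the 10 tested genes on either side of it in RefSeq order, from ZFP36 to PRX, 17 of 20 were at least 2-fold lower and 0 were higher, with a median log2 fold change of -3.36. FBL, the methyltransferase of ribosomal RNA, had 168 and 183 FPKM in degron (++) and 2738 and 2788 FPKM in degron (−). AKT2, a kinase that PANC-1 is known to carry in extra copies, had 39.4 and 40.7 FPKM against 498 and 485 FPKM. TIMM50, a mitochondrial import protein, had 33.4 and 34.3 FPKM against 508 and 512 FPKM. RPS16, a ribosomal protein gene in the same stretch, had 1870.5 and 1920.2 FPKM against 15407 and 13565 FPKM. Beyond AKT2 and the small RNA gene next to it, C19orf47, PLD3 and PRX had log2 fold changes of -0.31 to -0.02. PLEKHG2, which is among the largest falls, also lies in this stretch. The copy number of the stretch was not tested.

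**Figure D3:**
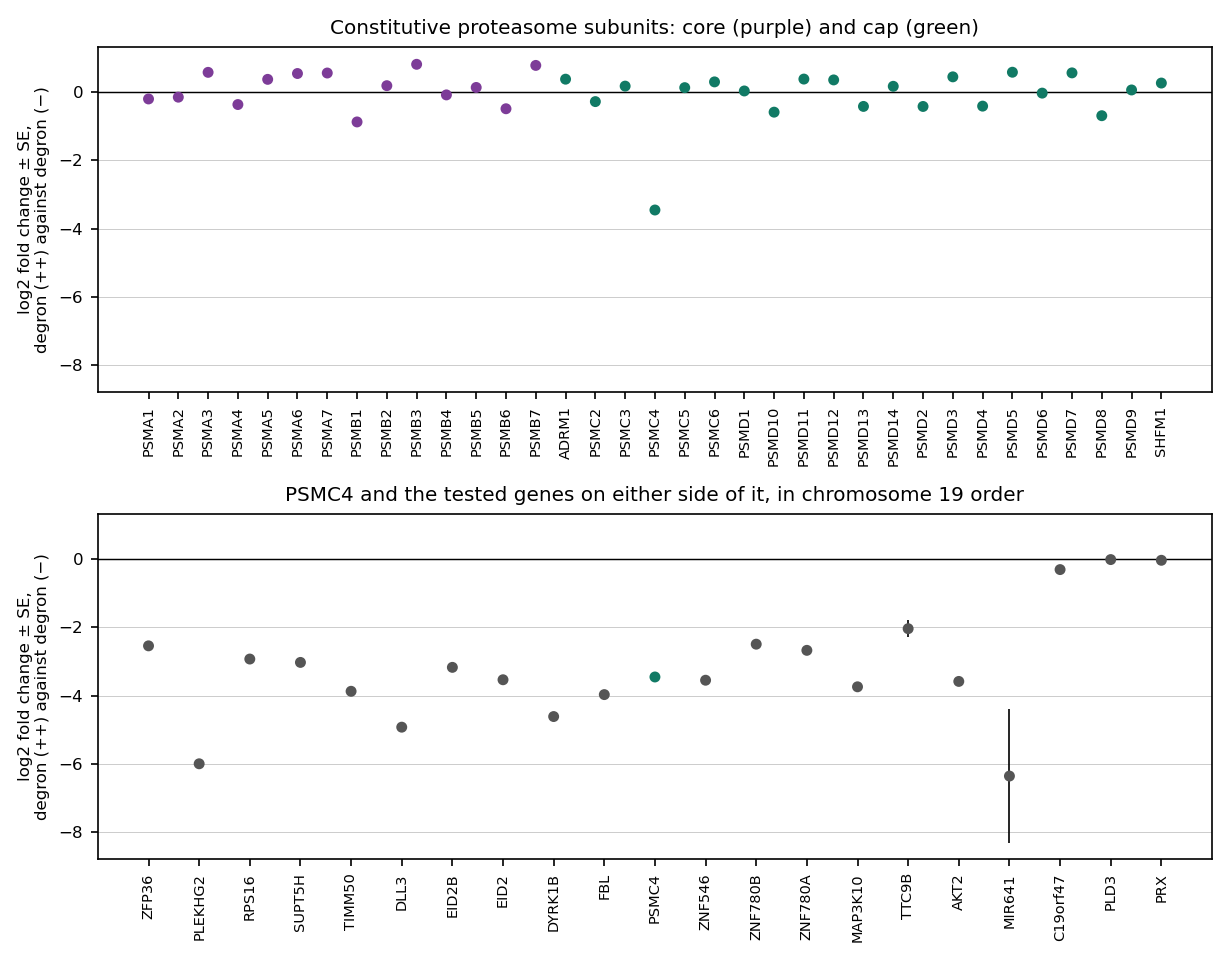
Log2 fold change with SE of the core and cap subunits of the proteasome (top) and of PSMC4 with 10 tested genes on each side in chromosome 19 order (bottom). PSMC4 is the only subunit below -1 in the upper panel, and in the lower panel its neighbours up to AKT2 and MIR641 lie between -6.35 and -2.04, on both sides of PSMC4, after which the 3 last genes lie near 0.

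Cell cycle machinery differed little. None of 38 tested mitotic genes was at least 2-fold apart by limma, with 10 higher and 18 lower past the adjusted threshold and log2 fold changes from -0.98 to 0.66. UBE2C, the most abundant of them and the ubiquitin carrier of the anaphase-promoting complex, had 305 and 312 FPKM against 290.3 and 272 FPKM, and its small difference changed sign after rescaling to TPM. Of 49 genes of DNA replication and S phase, 1 was at least 2-fold higher, the cyclin CCND2 (5.12 and 5.03 FPKM against 0.795 and 0.852 FPKM), and 2 were at least 2-fold lower, the kinase CDK6 (6.38 and 5.57 FPKM against 16.9 and 16.3 FPKM) and the ribonucleotide reductase subunit RRM2 (91.7 and 94.1 FPKM against 218 and 224 FPKM). Among 50 DNA repair genes 3 were at least 2-fold lower, the damage mediator MDC1, the nuclease partner ERCC1 and the glycosylase OGG1, and 0 were at least 2-fold higher. These shares lay below those of all genes.

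Cell cycle inhibitors and damage-response targets held large single-gene differences beside a median log2 fold change of 0.06 over 35 genes. CDKN1A, the p21 inhibitor, had 5.816 and 6.797 FPKM in degron (++) and 64.1 and 59.7 FPKM in degron (−). GDF15, a secreted stress signal, had 0.255 and 0.414 FPKM against 10.2 and 10.9 FPKM. In the other direction stood CDKN2A and CDKN2B, whose values are given above. Of 32 tested BCL2 family, caspase and related genes, 8 were at least 2-fold higher and 2 at least 2-fold lower. CASP1, the inflammatory caspase, had 16.4 and 17.0 FPKM against 2.44 and 2.35 FPKM. DAPK1 had 62.0 and 57.9 FPKM against 4.85 and 3.80 FPKM. BCL2A1, a survival protein, was listed at 0 in both degron (++) libraries and at 18.1 and 18.5 FPKM in degron (−), and the inhibitor of apoptosis BIRC2 was 3.21-fold lower in degron (++).

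HOX genes, which specify position along the body axis, separated the populations by cluster. Of 39 listed HOX genes 26 passed the filter, and 20 of them were at least 2-fold lower and 2 at least 2-fold higher in degron (++) cells, with a median log2 fold change of -2.26. All 9 tested HOXB genes and all 9 tested HOXC genes were at least 2-fold lower, with medians of -3.20 and -2.36. HOXC10 had 0.145 and 0.188 FPKM in degron (++) and 49.2 and 51.9 FPKM in degron (−), HOXC13 had 0.424 and 0.188 FPKM against 35.1 and 32.4 FPKM. HOXB2 was listed at 0 in degron (++) and at 29.2 and 28.1 FPKM in degron (−). In the HOXA cluster 2 of 8 genes were at least 2-fold higher and 2 at least 2-fold lower. HOXA11 was listed at 0 in degron (++) and at 1.08 and 1.01 FPKM in degron (−), and HOXA13 had 0.110 and 0.142 FPKM against 1.32 and 1.26 FPKM, both picked out as the lower members after their values were seen. HOXA3 had 13.1 and 13.0 FPKM against 4.37 and 3.67 FPKM. HOXA10 had 6.01 and 6.06 FPKM against 1.41 and 1.80 FPKM. None of 9 HOXD genes passed the filter. Of the 26, 14 passed the filter through the degron (−) libraries alone, so that they could only be lower in degron (++), and 0 through degron (++) alone.

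**Figure D4:**
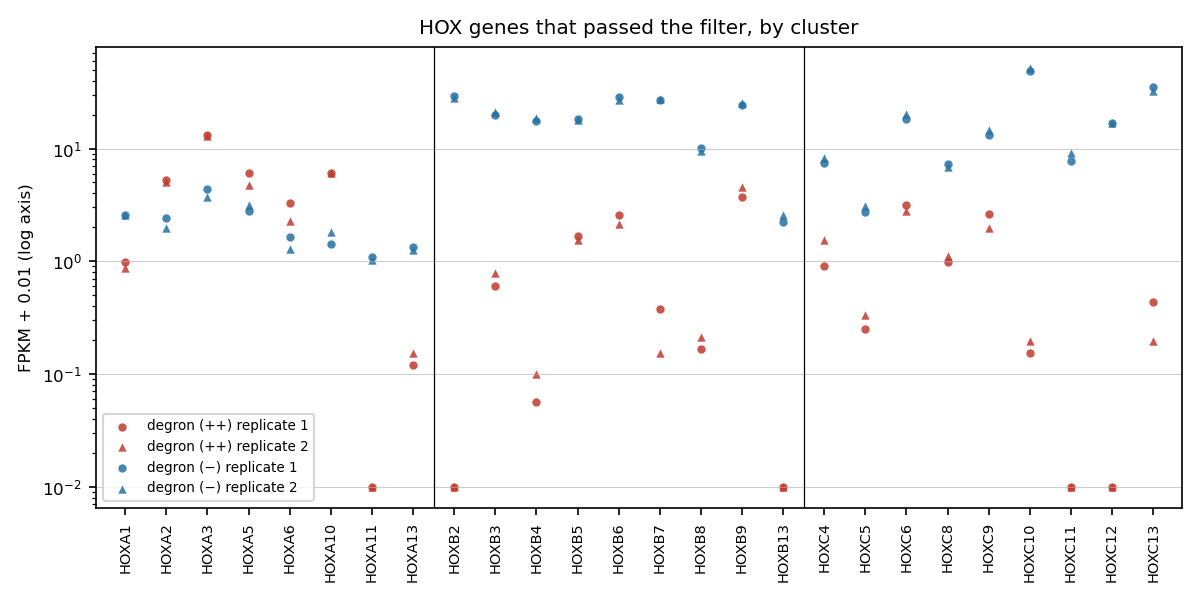
FPKM (with 0.01 added, log axis) of the 26 tested HOX genes in each of the 4 libraries, in the order of the HOXA, HOXB and HOXC clusters, with degron (++) in red and degron (−) in blue. The blue points lie above the red ones for all HOXB and HOXC genes, and below them for HOXA2, HOXA3, HOXA5, HOXA6 and HOXA10.

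Tested neuronal genes were lower in degron (++) cells. All 17 tested neuronal and neuroendocrine genes were lower past the threshold, 13 of them at least 2-fold, with a median log2 fold change of -1.93. KIF1A, a motor for synaptic vesicle precursors, had 0.136 and 0.0850 FPKM in degron (++) and 49.5 and 51.1 FPKM in degron (−). TUBB2B, a neuronal tubulin, had 0.186 and 0.0910 FPKM against 9.68 and 9.71 FPKM. ENO2, the neuronal enolase, had 1.75 and 1.74 FPKM against 17.98 and 19.47 FPKM. The rest of the 61 listed genes did not pass the filter, and 10 of the 17 passed it through the degron (−) libraries alone, so that they could only be lower in degron (++). Transcription factors of the pancreatic lineage had 5 of 16 members at least 2-fold higher and 6 at least 2-fold lower. KLF5, a factor of proliferating epithelium, had 41.0 and 36.4 FPKM against 5.03 and 5.49 FPKM. FOXA2, which opens chromatin in the foregut, had 0.689 and 0.448 FPKM in degron (++) and 22.5 and 23.0 FPKM in degron (−), and ONECUT3 and MAFA were 52.99-fold and 43.3-fold lower, both from under 10 FPKM in degron (−).

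Cancer stem cell and pluripotency markers did not rise as a group. Of 26 tested, 4 were at least 2-fold higher and 10 at least 2-fold lower, with a median log2 fold change of -0.67. With the filter set at 5 FPKM, the lower ones numbered 6. ALDH1A3, an aldehyde dehydrogenase behind the ALDEFLUOR assay, had 381 and 362 FPKM in degron (++) and 85.1 and 85.9 FPKM in degron (−). ABCG2, the efflux pump of side population cells, had 10.9 and 10.6 FPKM against 2.46 and 2.59 FPKM. EPCAM, which this list shares with the carcinoma markers, rose by 2.21 on the log2 scale. NES, the intermediate filament nestin, had 3.52 and 3.56 FPKM against 81.7 and 87.0 FPKM, LGR4, an R-spondin receptor, had 3.43 and 2.97 FPKM against 16.1 and 15.6 FPKM, and L1CAM was lower as given above. Of the surface markers used to sort pancreatic cancer stem cells, EPCAM RNA was thus higher, and CD44 and CD24 RNA were lower. CD24, picked out after its values were seen, was at 35.0% of the degron (−) level. RNA of CD133 is not given here. By flow cytometry, the study found more cells carrying both CD133 and CD44v9, a variant of CD44, in degron (++). RNA of a whole gene shows neither that variant nor protein at the surface, so the RNA values do not bear on that result.

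Growth factor and developmental pathways had members on both sides. In the WNT pathway 6 of 38 genes were at least 2-fold higher (15.8%, against 11.1% of all genes). Another 15 were at least 2-fold lower (39.5%, against 13.7%). WNT5A, a ligand of the non-canonical branch, had 9.09 and 8.78 FPKM in degron (++) and 0.868 and 0.906 FPKM in degron (−), while its relative WNT5B had 0 and 0.0420 FPKM against 44.8 and 44.9 FPKM. The secreted antagonist SFRP1 was listed at 0 in degron (++) and at 17.98 and 20.85 FPKM in degron (−), and the transcriptional repressor TCF7L1 had 0.0930 and 0.0610 FPKM against 33.7 and 31.4 FPKM. Both WNT5 ligands were thus far apart between the populations, in opposite directions. WNT5B, SFRP1 and TCF7L1 passed the filter through the degron (−) libraries alone, so that they could only be lower in degron (++). WNT5A passed it through the degron (++) libraries alone and could only be higher there. In the ERBB and MET list 9 of 40 genes were at least 2-fold higher (22.5%) and 12 at least 2-fold lower (30.0%). Of 14 feedback genes 7 were among the lower ones. The receptor ERBB3 had 44.0 and 41.1 FPKM against 5.38 and 5.11 FPKM. FGFBP1, which releases fibroblast growth factors from matrix, had 63.1 FPKM in both degron (++) libraries against 7.51 and 5.72 FPKM. DUSP4, a phosphatase of MAP kinases, was the 1 feedback gene at least 2-fold higher, with 37.1 and 36.7 FPKM against 5.89 and 5.47 FPKM. FGFR1 and IGF2 were 7.50-fold and 10.6-fold lower.

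The TGF-beta and BMP pathway had 8 of 47 genes at least 2-fold higher (17.0%, against 11.1% of all genes). Another 17 were at least 2-fold lower (36.2%, against 13.7%). BMP5 (15.05 and 14.86 FPKM against 2.474 and 2.002 FPKM), the procollagen protease BMP1 (28.9 and 29.6 FPKM against 5.56 and 5.43 FPKM) and INHBA, the activin A chain (52.1 and 56.7 FPKM against 14.3 and 13.0 FPKM), were higher. BMP6 had 0.292 and 0.199 FPKM in degron (++) and 11.1 and 12.8 FPKM in degron (−), LTBP2, a latent TGF-beta binding protein, had 0.556 and 0.709 FPKM against 62.3 and 65.3 FPKM, and the target ID2 had 0.876 and 0.995 FPKM against 20.8 and 18.2 FPKM. BMP6, LTBP2 and ID2 passed the filter through the degron (−) libraries alone, so that they could only be lower in degron (++). Of 8 tested target genes, ID2 among them, 4 were at least 2-fold lower and 0 at least 2-fold higher. Among YAP and TAZ regulators and targets 10 of 40 were at least 2-fold higher and 3 at least 2-fold lower, and the 3 became 10 after rescaling to TPM. VGLL1, a partner of TEAD factors, had 71.0 and 73.0 FPKM against 7.599 and 8.989 FPKM. F3, tissue factor, had 375 FPKM in both degron (++) libraries against 77.2 and 78.4 FPKM. WWTR1, which encodes TAZ, had 12.1 and 12.5 FPKM in degron (++) and 54.8 FPKM in both degron (−) libraries, and the target CTGF had 25.4 and 29.1 FPKM against 92.8 and 103 FPKM. Axon guidance ligands and receptors had 19 of 48 members at least 2-fold higher (39.6%) and 10 at least 2-fold lower (20.8%). The ligand SEMA3B had 13.6 and 13.0 FPKM against 0.787 and 1.23 FPKM, and the netrin receptor UNC5A had 9.57 and 10.3 FPKM against 0.794 and 0.484 FPKM. SLIT3, a repulsive ligand, had 0 and 0.0160 FPKM in degron (++) and 15.4 and 15.3 FPKM in degron (−). UNC5A passed the filter through the degron (++) libraries alone, and SLIT3 through the degron (−) libraries alone.

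Lipid synthesis genes were higher more often than lower in degron (++) cells. Of 51 tested genes of cholesterol and fatty acid synthesis, 17 were at least 2-fold higher (33.3%, against 11.1% of all genes) and 7 at least 2-fold lower (13.7%, as in all genes), with a median log2 fold change of 0.77. Of 19 cholesterol synthesis genes 14 were higher past the threshold, though 3 reached 2-fold. The fatty acid elongase ELOVL6 had 25.8 and 24.9 FPKM in degron (++) and 4.50 and 3.72 FPKM in degron (−), and ACSL5, which activates fatty acids, was 4.57-fold higher. The apolipoprotein genes APOE and APOC1, which lie side by side on chromosome 19, were lower, with 0.334 and 0.325 FPKM against 34.2 and 29.7 FPKM for APOC1. FADS2, a desaturase, had 4.70 and 4.94 FPKM against 86.2 and 73.0 FPKM. Glucose and hypoxia genes had 3 of 40 members at least 2-fold higher and 5 at least 2-fold lower. These shares of 7.5% and 12.5% lay near or below those of all genes. The glucose transporters SLC2A3 (56.7 and 55.1 FPKM against 7.19 and 7.39 FPKM) and SLC2A1 (72.1 and 77.8 FPKM against 28.0 and 26.8 FPKM) were higher. The hypoxia-inducible genes ANGPTL4 (0.961 and 0.987 FPKM against 77.0 and 81.1 FPKM) and BNIP3 (0.127 and 0 FPKM against 30.6 and 28.0 FPKM) were lower. Nuclear-encoded genes of oxidative phosphorylation had 2 of 77 members at least 2-fold higher and 4 at least 2-fold lower, and the lower ones numbered 9 after rescaling to TPM.

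Detoxification genes differed in both directions. Among 55 tested genes of the NRF2, glutathione and detoxification list, 13 were at least 2-fold higher (23.6%) and 10 at least 2-fold lower (18.2%). The shares of all genes were 11.1% and 13.7%, and the median log2 fold change of the list was 0.06. MGST1, a microsomal glutathione transferase, had 405 and 414 FPKM in degron (++) and 88.0 and 77.3 FPKM in degron (−), and ALDH3B1 was 5.77-fold higher. GSTT1, which is known to be deleted in many people, was listed at 0 in both degron (++) libraries and at 31.5 and 33.1 FPKM in degron (−), and GSTM3 was listed at 0 against 15.3 and 14.3 FPKM. The efflux pump ABCC1 had 7.24 and 7.14 FPKM against 76.5 FPKM in both degron (−) libraries. Of 7 tested metallothioneins 4 were at least 2-fold lower and 0 at least 2-fold higher. MT1A had 5.83 and 7.87 FPKM against 55.2 and 54.5 FPKM. Of 14 iron and copper genes 2 were at least 2-fold higher (14.3%) and 3 at least 2-fold lower (21.4%). Of 5 zinc transporters 2 were at least 2-fold higher and 0 lower. The zinc importer SLC39A8 had 14.3 and 15.2 FPKM against 2.24 and 2.41 FPKM. The iron reductase CYBRD1 had 43.4 and 43.2 FPKM against 4.64 and 4.05 FPKM. Of 17 polyamine genes 2 were at least 2-fold higher (11.8%, against 11.1% of all genes) and 4 at least 2-fold lower (23.5%, against 13.7%). The higher ones were SMOX and SLC3A2, with log2 fold changes of 1.40 and 1.18. SAT2 (-1.60), OAZ2 (-1.42) and PAOX (-1.38) were among the lower ones. Unfolded protein and heat shock genes had 7 of 48 members at least 2-fold higher (14.6%) and 2 at least 2-fold lower (4.17%), and 4 in each direction after rescaling to TPM. Among these the stress-response genes DDIT4 and TRIB3 were 3.96-fold and 3.38-fold higher, while ATF5 and DDIT3, which encodes CHOP, were 7.58-fold and 2.91-fold lower. None of 21 genes of the endoplasmic reticulum was at least 2-fold apart.

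Some smaller families complete the account. Of 81 ribosomal protein genes 13 were at least 2-fold higher and 2 at least 2-fold lower, with a median log2 fold change of 0.56. RPL23A had 822 and 818 FPKM against 231 and 201 FPKM, RPL39L was listed at 0 against 51.5 and 58.1 FPKM, and RPS16 fell with its chromosome 19 neighbours. Reads of ribosomal protein genes can be shared with their many pseudogenes, so these values are uncertain. S100 and annexin genes had 6 of 20 members in each direction at least 2-fold apart. S100A14 (41.1 and 37.6 FPKM against 4.83 and 4.01 FPKM) and ANXA3 (118 and 124 FPKM against 22.1 and 23.0 FPKM) were higher, and ANXA6 (0.0320 and 0 FPKM against 30.8 and 28.6 FPKM) and S100A4 (84.9 and 87.0 FPKM against 388 and 329 FPKM) were lower. Among lysosome and autophagy genes 7 of 53 were at least 2-fold higher and 10 at least 2-fold lower. These shares of 13.2% and 18.9% lay near the 11.1% and 13.7% of all genes. The sialidase NEU1, which lysosomes of most cells contain, was listed at 0 in both degron (++) libraries and at 30.6 and 31.9 FPKM in degron (−). Imprinted genes had 2 of 15 members at least 2-fold higher and 7 at least 2-fold lower. MEG3, a maternally expressed RNA, was listed at 0 against 30.6 and 31.4 FPKM. PEG10 had 105 and 104 FPKM against 24.9 and 23.8 FPKM. Of 411 zinc finger genes with names in ZNF, 18 were at least 2-fold higher and 44 at least 2-fold lower, near the shares of all genes or below them. Cancer-testis genes had 4 tested members, 1 of them at least 2-fold higher and 3 at least 2-fold lower.

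**Figure D5:**
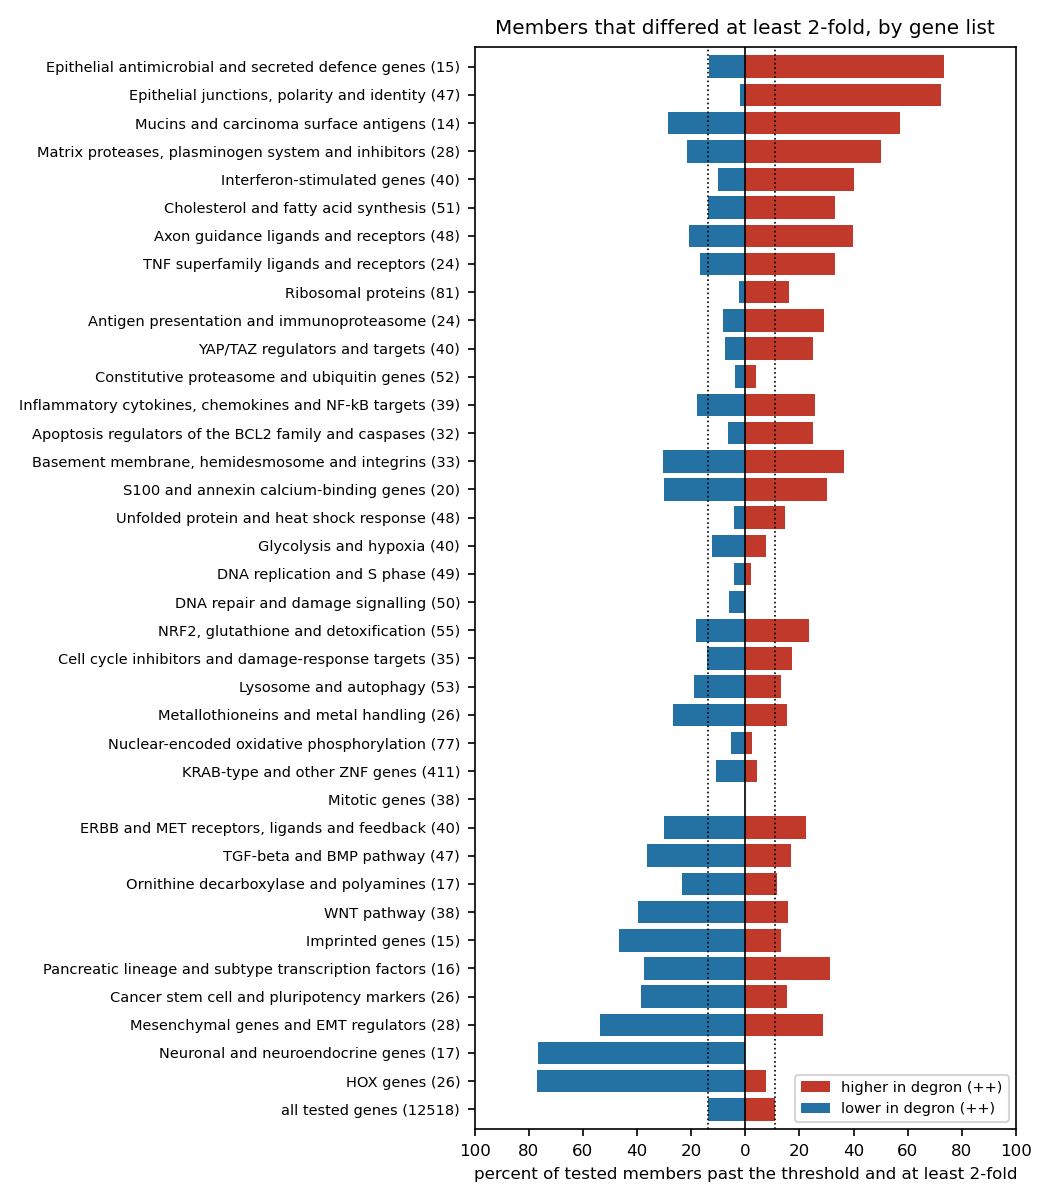
Percent of the tested members of each gene list with at least 10 tested members that were past the threshold and at least 2-fold higher (red, to the right) or lower (blue, to the left) in degron (++) cells, with the number tested in parentheses and dotted lines at 11.1% and 13.7%, the shares of all tested genes. Lists are ordered by median log2 fold change, from secreted defence and epithelial genes at the top, with 73.3% and 72.3% of members higher, to HOX and neuronal genes at the bottom, with 76.9% and 76.5% lower.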

How the data were processed

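RNA of infected PANC-1 cells, unsorted or sorted for ZsGreen, was sequenced as stranded mRNA libraries. The submitters' processing notes name TopHat2 2.1.1, Bowtie2 2.2.8, SAMtools 0.1.18, Cuffdiff 2.2.1 and the build hg19. The annotation is not given in the sources used here. The authors deposited 1 table per library with gene names and FPKM, that is, values normalized for gene length and mapped reads, and no counts were used.

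Genes with an FPKM of at least 1 in at least 2 of the 4 unirradiated libraries were kept, and log2(FPKM + 1) of all 12 libraries was fitted with 6 group means in limma 3.58.1 (R 4.3.3; lmFit, contrasts.fit, eBayes with trend, two-sided, Benjamini-Hochberg threshold of 0.05). The other libraries entered the estimate of the spread. The fit was tested on simulated data. Tables and figures were made with Python 3.11.15, numpy 2.4.6, pandas 2.3.3 and matplotlib 3.10.9. Promoter windows were matched by gene symbol to RefSeq, GRCh38.p14, and used for sequence only, since the build of the files differs.

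The members and gene lists were chosen with earlier results of these data known. Named genes were the 10 largest rises and 10 largest falls with a mean of at least 5 FPKM in the higher population, without keratins, clustered histone, small RNA and Y-linked genes and the 10 genes of the study's table, then up to 3 rises and 3 falls of at least 2-fold in each list, the most abundant member of a list without such genes, and the markers and reporter-related genes. The neighbours of PSMC4 were taken by position. The alternatives tried were another pseudocount, 2 other filters, 3 other scalings, no variance trend, the 4 unirradiated libraries alone, the replicate number as a block and each library left out. Genes with near copies or overlaps (ribosomal protein, metallothionein and HLA genes) share reads, so their values are uncertain. Values of some genes are not reported here.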

Additional observations from a re-analysis of the deposited data

Results flagged for a closer look

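For 5 of the named genes the difference between the populations at 48 h was not the same at 4 Gy as at 0 Gy, by limma's test of the change in the log2 difference, adjusted over all genes tested. This test passed for 17 genes (0.136%) in all, with 1728 genes at an unadjusted p under 0.05. ANPEP, the membrane aminopeptidase, was further apart at 4 Gy, with a change of -0.997 (adjusted p = 0.0330, limma), from a log2 fold change of -4.17 to -5.17. Its FPKM at 4 Gy was 3.01 and 3.49 in degron (++) and 155 and 148 in degron (−). The other 4 genes were higher in degron (++) cells and less far apart at 4 Gy. NNMT changed by -0.70 (adjusted p = 0.0330, limma), with 23.6 and 22.4 FPKM in degron (++) and 2.54 and 2.57 FPKM in degron (−) at 4 Gy. LAMA3 changed by -0.62 (adjusted p = 0.0378, limma), with 137 FPKM in both degron (++) libraries and 38.8 and 42.8 FPKM in degron (−) at 4 Gy. BMP1 changed by -0.61 (adjusted p = 0.0397, limma), with 27.5 and 25.7 FPKM against 7.82 and 8.26 FPKM. COL12A1 changed by -0.72 (adjusted p = 0.0478, limma), with 32.9 and 33.2 FPKM against 7.83 and 8.70 FPKM. In LAMA3, NNMT, BMP1 and COL12A1 both degron (−) libraries were higher at 4 Gy than at 0 Gy.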

How the results depend on the processing

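The counts of genes past the threshold, in each direction and with or without the 2-fold rule, stayed within 1.5 times the reported counts under every alternative. Higher and lower genes numbered 3460 and 6170 after rescaling to TPM and 5155 and 4708 after quantile normalization, and the 2-fold counts were then 1144 and 2241, and 1621 and 1485. Leaving out 1 library gave 4467 to 4498 higher and 4744 to 4807 lower genes, and 1347 to 1423 and 1718 to 1741 by the 2-fold rule, where the lone library of a population is assumed to vary like the other groups. Same-numbered libraries of the 2 populations did not deviate together (correlation -0.0633), so the numbers were not taken as pairs. With the replicate number as a block, 9850 genes passed, of which 9777 were among the 9880 passing without it, and the counts were 4786 higher and 5064 lower, and 1392 and 1722 by the 2-fold rule. The gene lists were less stable. Their medians moved by more than the replicate spread in 149 cases and stayed in 345. Counts of 2-fold higher members moved beyond 1.5 times in 17 cases and stayed in 477, and those of 2-fold lower members in 22 and 472. Of the values of named genes under the alternatives, 2793 kept their direction and their side of the threshold. UBE2C reversed after rescaling to TPM (-0.074, adjusted p = 0.296, limma), and lost its call in 5 other settings. The call of OAZ1 was lost without degron (++) replicate 1 (-0.11), without degron (−) replicate 1 (-0.16) and without degron (−) replicate 2 (-0.18), and that of ODC1 without the trend, in the 4 libraries alone, and without degron (++) replicate 1 (-0.09), degron (++) replicate 2 (-0.10) or degron (−) replicate 2 (-0.07). PSMB5, which did not pass, passed in the 4 libraries alone (0.13, adjusted p = 0.0394, limma) and was negative after rescaling to TPM (-0.079, adjusted p = 0.120, limma). The cause was not tested. Depth is unknown, so no counting error was given for low FPKM.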
